A study of Mus musculus with 79 samples.

Results

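Cox7a2l was read by 2 of the 35556 probesets on the array, which are all the probesets that carry its symbol, and both were followed here over every strain and diet. The RNA came from quadriceps of 29-week-old male mice of the BXD family, fasted overnight before sacrifice, and each array held an even pool of about 5 animals of 1 strain on 1 diet. A total of 42 arrays came from a chow diet (CD) and 37 from a high fat diet (HFD) that was begun at 8 weeks of age. They covered 42 strains, namely the parents C57BL/6J and DBA/2J and the inbred BXD lines that descend from their crosses, and 37 of the strains had an array on each diet. RNA was extracted and hybridized in 2 sets, called batches here, of which the first held 18 CD with 17 HFD arrays and the second 24 CD with 20 HFD arrays. Because animals were pooled, their own spread is unknown, and a strain on a diet is a single value.

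Cox7a2l, also called SCAF1, belongs to the COX7A family, whose other members Cox7a1 (the heart and skeletal muscle form) and Cox7a2 (the widely expressed form) are subunits of cytochrome c oxidase, complex IV of the respiratory chain. In the inner mitochondrial membrane the protein takes the place of these subunits in a part of complex IV and joins it to complex III, which gives supercomplexes. C57BL/6 mice carry a shorter form of the protein than many other mouse strains, so the gene has been much studied in families derived from that strain. An expression array measures its transcript and says nothing of the assembled complexes.

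The probesets had different places in the array's numbering, which follows the genome. Of the 10 mapped probesets numbered closest to 10453254, 8 belonged to genes on the chromosome of Cox7a2l, all within 8 genes of it, among them Kcng3, Haao, Zfp36l2 and Thada. For 10399677, 0 of 10 did, and 10 of 10 belonged to genes of another chromosome, among them Hpcal1, Id2, Rnf144a, Rsad2 and Sox11. Probeset 10453254 was therefore taken as the measure of the gene, and 10399677 was kept as a probeset with the same symbol at another place, whose reads of Cox7a2l are uncertain. The deposited values are scores, scaled so that each array has mean 8.0 and SD 2.0 over its probesets. Folds are nominal, since 1 unit doubles the signal if the log2 values of an array had that same SD and not otherwise. Over all arrays 10453254 had a mean score of 8.61, above 65.3% of the probesets, and 10399677 a mean of 9.48, above 79% of them. Scores of different probesets depend on their probes and were not compared as amounts.

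The strains differed in Cox7a2l by more than the 2 arrays of a strain did. On CD the score of 10453254 was 7.77 in the lowest strain, 8.70 at the median and 9.08 in the highest, and on HFD it was 7.90, 8.56 and 8.87. The diets covered much the same range, with a tail toward low values. Over the 37 paired strains the limma F test for strain, fitted with diet and batch, gave F = 3.45 and an adjusted p of 0.00258, where 13.6% of all probesets were called. The SD left between the arrays of a strain was 0.164, and the strain means spanned 0.97 units, a nominal 1.96-fold. The strain effect of 10399677 was called as well (F = 4.56, adjusted p = 0.000178), with an SD of 0.125 within strains and a span of 0.78 units, a nominal 1.71-fold.

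By its mean BXD80 was the lowest strain on 10453254, with a score of 7.77 on CD and 8.11 on HFD. Its mean of 7.94 lay 0.36 below that of the next strain, BXD87, and this was the 1 gap of 36 between neighbours in the order that exceeded the SD within strains. The step was seen on CD, where BXD73 was next at 8.29, while on HFD BXD71 also had 8.11. BXD87 took its place through its HFD array alone, at 7.90 against 8.69 on CD, and lay below BXD80 on HFD. At the other end stood BXD49 (9.08 on CD and 8.74 on HFD), BXD65 (8.94 and 8.80) and BXD96 (8.82 and 8.87), and 23 strains lay within 2 of these SDs of the highest mean, so the upper part of the order was not resolved. Without BXD80, which was singled out after its values were seen, the strain effect gave F = 2.82 and an adjusted p of 0.0153.

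On 10399677 the order was another one and had no such step, since 0 of its 36 gaps exceeded the SD within strains and the largest was 0.11. BXD43 was lowest (8.96 on CD and 9.23 on HFD) and BXD97 highest (9.80 and 9.96). BXD80 stood 11th from the bottom there with 9.52 and 9.27, and BXD87 stood 34th with 9.81 and 9.68, so neither was among the lowest strains on this probeset. BXD55, 3rd and 4th from the bottom, and BXD85, 7th and 2nd, stood low on both. A mixture of normal components did not split the strain means of either probeset into separate clusters. The 5 strains with a CD array alone had scores of 8.65 (BXD101), 8.80 (BXD60), 8.81 (BXD50), 8.96 (BXD95) and 9.05 (BXD92a) on 10453254.

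**Figure D1:**
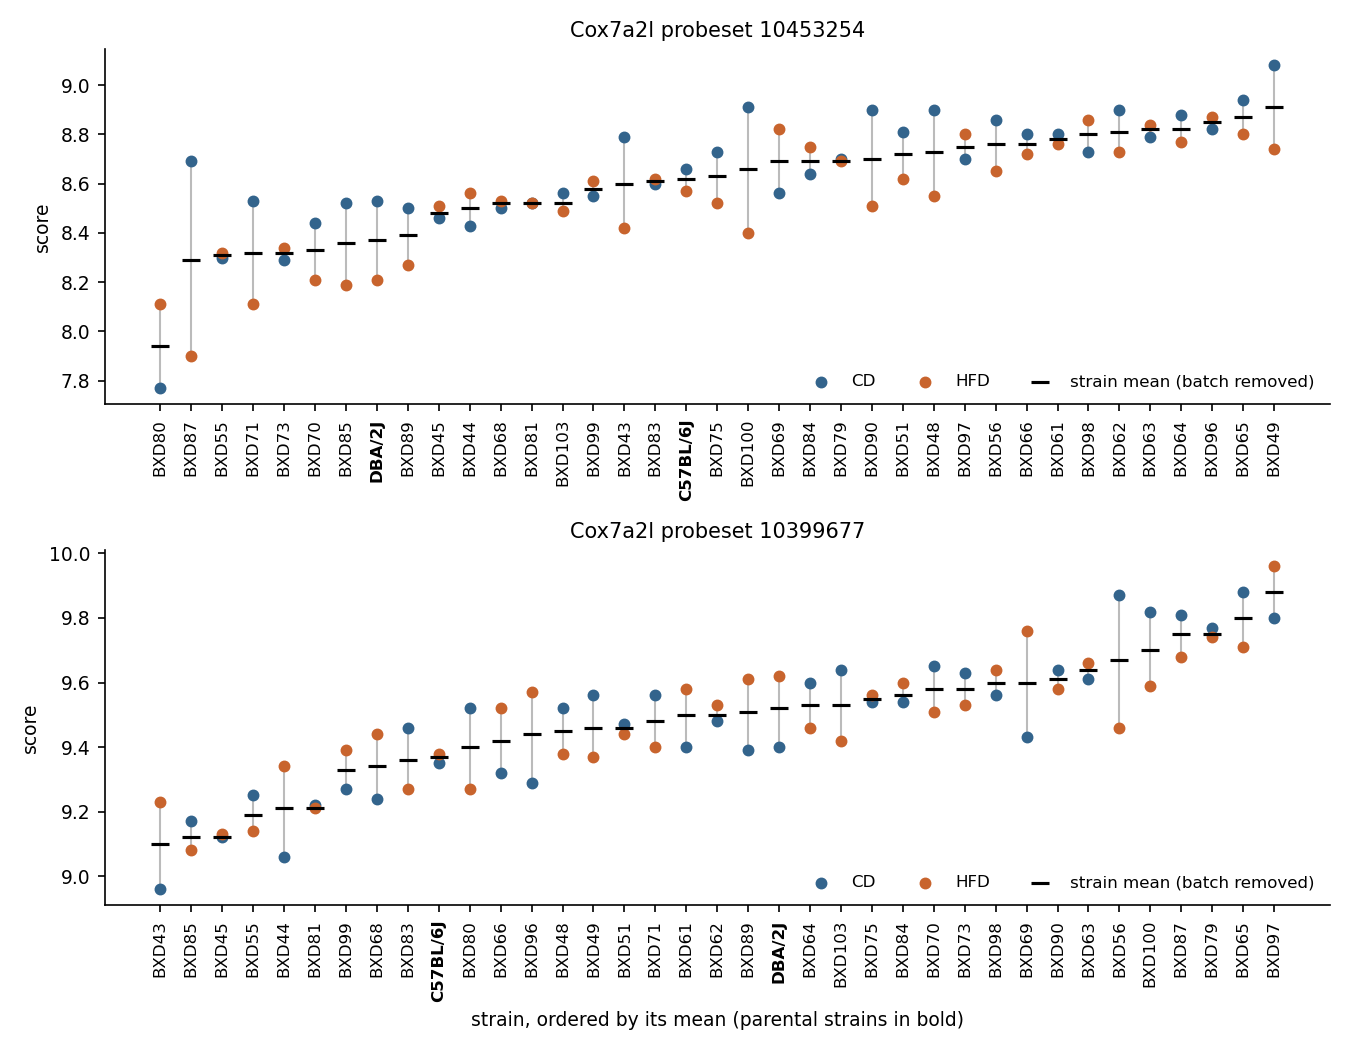
Score of both Cox7a2l probesets in the 37 strains with an array on each diet, ordered by the strain mean (black bar, batch removed); blue points are CD arrays, orange points HFD arrays, and parental strains are in bold. BXD80 stands 0.36 below the next strain on 10453254 and 11th from the bottom on 10399677.

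Strains kept their Cox7a2l level between the diets in part. The CD and HFD scores of 10453254 correlated over 37 strains with r = 0.55 (permutation p = 0.00034, adjusted p over the 5 relations tested = 0.00085) and rho = 0.545 (p = 0.00062, adjusted p = 0.00155). Leaving out BXD73 and BXD80, which lay farthest from the CD median, gave r = 0.469. Across all probesets the median of this cross-diet r was 0.14, 7.69% reached 0.5, and 5.63% had a higher r than 10453254. Among probesets with a mean score at or above the median, where both Cox7a2l probesets lie, these were 0.236 and 13.4% reached 0.5. For 10399677 r was 0.654 (permutation p = 1e-05, the smallest that the draws allow, adjusted p = 5e-05) and rho 0.591 (p = 0.00014, adjusted p = 0.0007), and 2.68% of the probesets had a higher r.

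Within batches the relation of 10453254 had r = 0.669 over the 17 strains with both arrays in batch 2 (permutation p = 0.00328) and r = 0.549 over the 12 with both in batch 1 (permutation p = 0.061). Over the 8 strains with arrays in different batches r was 0.33 (exact permutation p = 0.417). The same values for 10399677 were 0.705 (permutation p = 0.0011), 0.725 (permutation p = 0.0076) and 0.561 (exact permutation p = 0.159). The probesets were less alike to each other. Their r was 0.318 over the 42 CD arrays (permutation p = 0.0396, adjusted p = 0.0495) and 0.343 over the 37 HFD arrays (permutation p = 0.0369, adjusted p = 0.0495). Over the strain means r was 0.315 and did not pass (permutation p = 0.0572). By rank rho was 0.452 on CD (permutation p = 0.00312, adjusted p = 0.0052) and 0.402 on HFD (permutation p = 0.0139, adjusted p = 0.0174). Over the strain means rho was 0.33 and passed (permutation p = 0.0463, adjusted p = 0.0463). Without the 2 strains farthest from the median of 10453254, r was 0.489 on CD, 0.448 on HFD and 0.427 over the strain means.

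**Figure D2:**
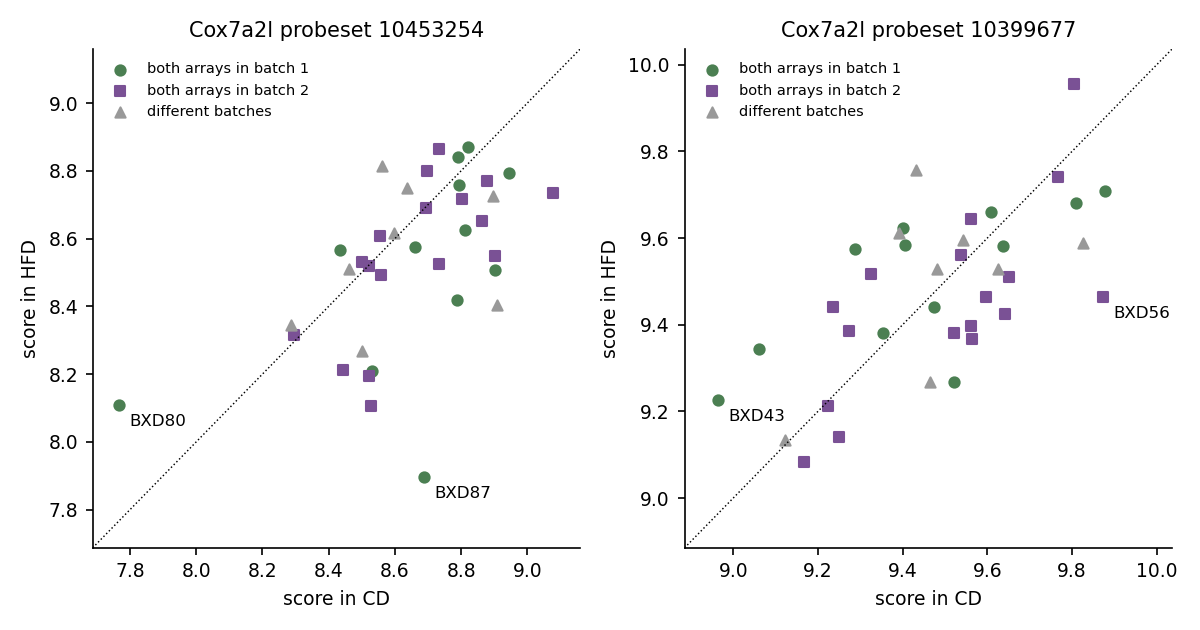
Score on HFD against score on CD for each of the 37 paired strains on both Cox7a2l probesets; marker shape gives the batches of the arrays and the dotted line marks equal scores. On 10453254 BXD80 is low on both diets and BXD87 (8.69 on CD, 7.90 on HFD) lies farthest from the line.

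The difference between the parents in Cox7a2l did not pass the test. On 10453254 C57BL/6J scored 8.66 on CD and 8.57 on HFD, and DBA/2J scored 8.53 and 8.21. C57BL/6J was thus higher on each diet, by 0.248 ± 0.162 (SE) in a fit that took the spread from all paired strains, with a 95% interval from -0.080 to 0.576 and a limma adjusted p of 0.819, where 1.26% of all probesets were called. On 10399677 the order of the parents was the opposite, with 9.35 and 9.38 in C57BL/6J and 9.40 and 9.62 in DBA/2J, a difference of -0.145 ± 0.127 (limma adjusted p = 0.926, 95% interval from -0.402 to 0.112). Both values moved when 1 DBA/2J array was left out. Without the HFD array of DBA/2J they were 0.14 and -0.0328, and without its CD array 0.356 and -0.257, and none of these passed.

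By their means over the diets, most BXD strains lay outside the range of the parents. That range is itself a difference that did not pass. Of the 35 BXD strains with both diets, 19 had a mean on 10453254 above C57BL/6J, 7 had one below DBA/2J and 9 lay between them. On 10399677 the numbers were 16 above both parents, 9 below both and 10 between. The count depended on the diet. Between the parents lay 5 strains on CD and 14 on HFD with 10453254, and 1 and 18 with 10399677. Each parent had 1 array per diet, and the fit assumes that the parents vary like the other strains.

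Cox7a2l was slightly lower on HFD by the probeset at the gene. The mean score of 10453254 was 8.68 ± 0.24 (SD, n = 42) on CD and 8.54 ± 0.24 (SD, n = 37) on HFD, and the groups overlapped over most of their range. Of the 37 paired strains 23 were lower on HFD and 14 higher. The change within a strain ran from -0.79 in BXD87 to 0.34 in BXD80, with a median of -0.09. The difference was -0.138 ± 0.0542 (SE), with a 95% interval from -0.246 to -0.030 and a limma adjusted p of 0.0365. This call has a wide background, since 38.1% of all probesets were called by diet and 19.3% were called as lower on HFD. On 10399677 the scores were 9.48 ± 0.23 on CD (lowest 8.96, median 9.52, highest 9.88) and 9.48 ± 0.19 on HFD (9.08, 9.51, 9.96). The difference there was -0.001 ± 0.0476 (limma adjusted p = 0.989, 95% interval from -0.096 to 0.094), and 18 strains were higher and 19 lower on HFD.

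The size of the diet difference on 10453254 was alike in the batches, -0.132 in batch 1 alone (limma adjusted p = 0.397) and -0.142 in batch 2 alone (limma adjusted p = 0.0872), neither of which passed. The call was also lost without the parental strains (limma adjusted p = 0.0537), over the 37 paired strains with no block for strain (0.11) and when arrays were centred on their median (0.0816). With strain as a block, which keeps the pairing of the arrays, the difference over the same 37 strains was -0.111 and passed (limma adjusted p = 0.0176).

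**Figure D3:**
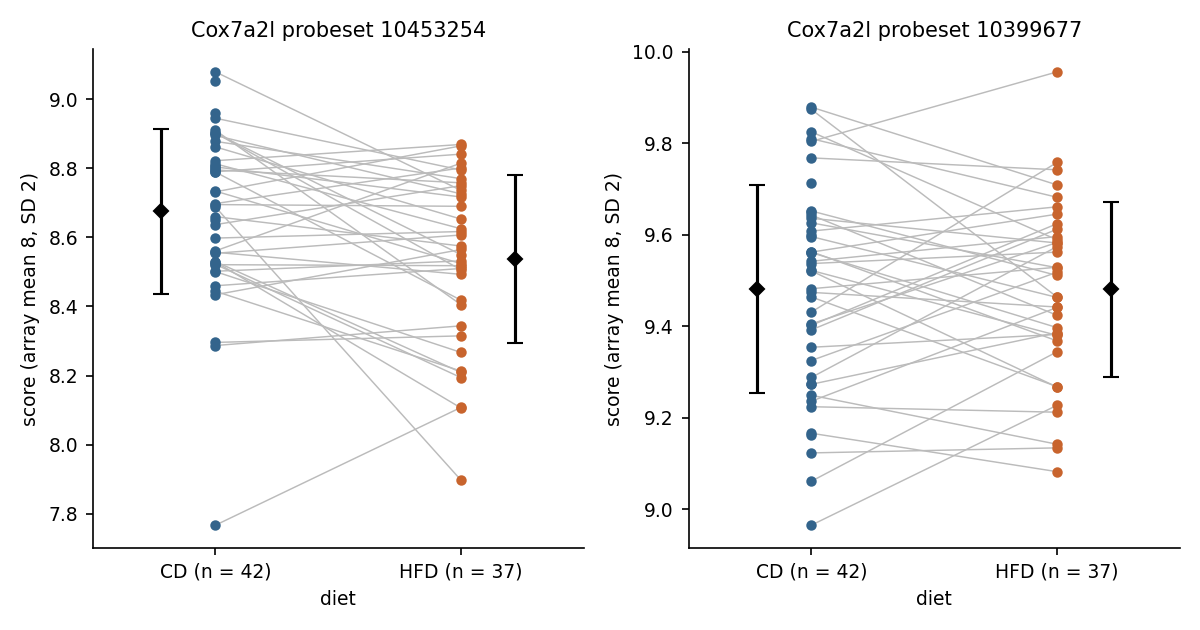
Score of both Cox7a2l probesets by diet; points are arrays, grey lines join the arrays of a strain, and black diamonds with bars are the mean and SD. On 10453254 the mean falls from 8.68 to 8.54 with wide overlap, and on 10399677 both means are 9.48.

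The 8 muscle genes, such as Acta1, Ckm and Myh4, had a mean score between 13.50 and 14.17 on CD and between 13.51 and 14.15 on HFD. Over all 22319 genes, 4678 were called higher on HFD (21%) and 4911 lower (22%), with a median difference of -0.001, and the counts of the lists stand beside these shares. Of 8 adipocyte markers 6 rose, 1 fell (Cfd, by 0.608) and 1 did not pass, and their mean score ran from 9.85 to 11.40 on CD and from 10.09 to 11.84 on HFD. Lep, the leptin gene, rose by 1.58 units (limma adjusted p = 5.02e-11). Of 6 macrophage markers 3 rose and 3 did not pass, with mean scores from 8.23 to 8.92 on CD and from 8.33 to 9.30 on HFD, and of 5 endothelial markers 3 rose and 2 did not pass (9.60 to 10.27 and 9.84 to 10.41). Of 8 slow fibre genes 1 rose (Tpm3), of 8 fast fibre genes 1 fell (Tnni2) and of 5 red blood cell genes 1 rose, and the others did not pass. The counts of the fibre and red blood cell lists were at or below the shares of all genes. Genes called higher in the adipocyte, macrophage and endothelial lists were above the share of 21%. The scores have no zero, so no marker can be called absent. All 8 adipocyte and 6 macrophage genes had positive r with 10453254 across strains, and all 8 muscle genes (-0.44 to -0.11) and all 8 fast fibre genes (-0.43 to -0.11) had negative r, with a median of -0.21 in each of these lists. The median r with 10453254 over the strain means was 0.31 for the adipocyte and 0.34 for the macrophage list, against -0.04 over all genes. The highest was 0.58 for Emr1, a surface receptor of macrophages (r = 0.22 on CD alone and 0.44 on HFD alone). On HFD the called adipocyte genes other than Cfd and the called macrophage genes were higher, and 10453254 was lower. Their part in the values of Cox7a2l was not tested, and in pooled tissue fewer cells of a type and less RNA per cell cannot be told apart.

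Among the relatives of Cox7a2l in the COX7A family, Cox7a2 moved the same way. Cox7a2 had a score of 11.82 ± 0.12 on CD and 11.74 ± 0.14 on HFD, with ranges that overlapped, and fell by 0.080 (SE 0.0297, limma adjusted p = 0.026), with 10 strains of 37 higher on HFD. Cox7a1, the muscle form, had 13.72 ± 0.12 and 13.78 ± 0.14, a difference of 0.055 (SE 0.0301, limma adjusted p = 0.142). Across strain means their r with 10453254 was 0.28 and -0.28.

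Differences between the diets were small among the subunits of the complexes that Cox7a2l joins. Of 9 complex III subunits 5 were called higher on HFD and 0 lower, with a median difference of 0.061 over the list. The shares of all genes were 21% higher and 22% lower. The called members were Cyc1 (cytochrome c1, 0.130), Uqcr10 (0.122), Uqcrq (0.074), Uqcrh (0.070) and the core protein Uqcrc2 (0.061). Of 18 complex IV subunits 5 were called higher and 3 lower, with a median of 0.044, so these counts lay near the shares of all genes. Cox8a (0.195), Cox6a1 (0.160), Cox5b (0.103), Cox6c (0.077) and Cox7c (0.075) rose. Besides Cox7a2, the members that fell were Cox7b2 and Cox8c, by 0.275 and 0.287, whose mean CD scores of 5.45 and 7.75 were low. Both are isoforms known from testis.

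Of 36 complex I subunits 10 were called higher and 0 lower, with a median of 0.054, beside shares of 21% and 22% of all genes. Ndufa3 had the largest difference, 0.160 (limma adjusted p = 1.42e-06, higher on HFD in 34 of 37 strains), and Ndufs8, an iron-sulfur subunit, rose by 0.118. Of 24 assembly factors of complex IV 20 were measured, and 8 of these were called higher and 1 lower. Cox17, a copper chaperone, rose by 0.125, and Cox19 by 0.113. The 83 measured genes of these 4 lists together gave 28 called higher and 4 lower with a median difference of 0.049, beside the same shares. The same 83 genes gave 6 higher and 2 lower in batch 1 alone, and 15 higher and 3 lower in batch 2 alone. In these fits 4491 and 8691 of all 35556 probesets were called in either direction.

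Among 9 measured factors linked to supercomplexes 0 were called higher and 2 lower, and the latter share was that of all genes (22%). The 2 were Cox7a2 and the gene listed as 2900010M23Rik, now Uqcc2, an assembly factor of complex III, which fell by 0.131 (limma adjusted p = 0.00935). Higd1a and Higd2a, which associate with respiratory supercomplexes, had differences of 0.136 and 0.070 and did not pass (limma adjusted p = 0.0629 and 0.14), and neither did Cox6a2 (0.013). A place on another chromosome was not particular to the second Cox7a2l probeset. Of 88 mapped members of the 5 lists 7 had 0 of 10 numbered neighbours on their own chromosome, namely Ndufa11, Ndufb4, Ndufb11, Cox6c, Cox7b, Cox18 and Higd1a. Without such members 26 of 77 genes of the 4 lists were called higher and 4 lower.

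**Figure D4:**
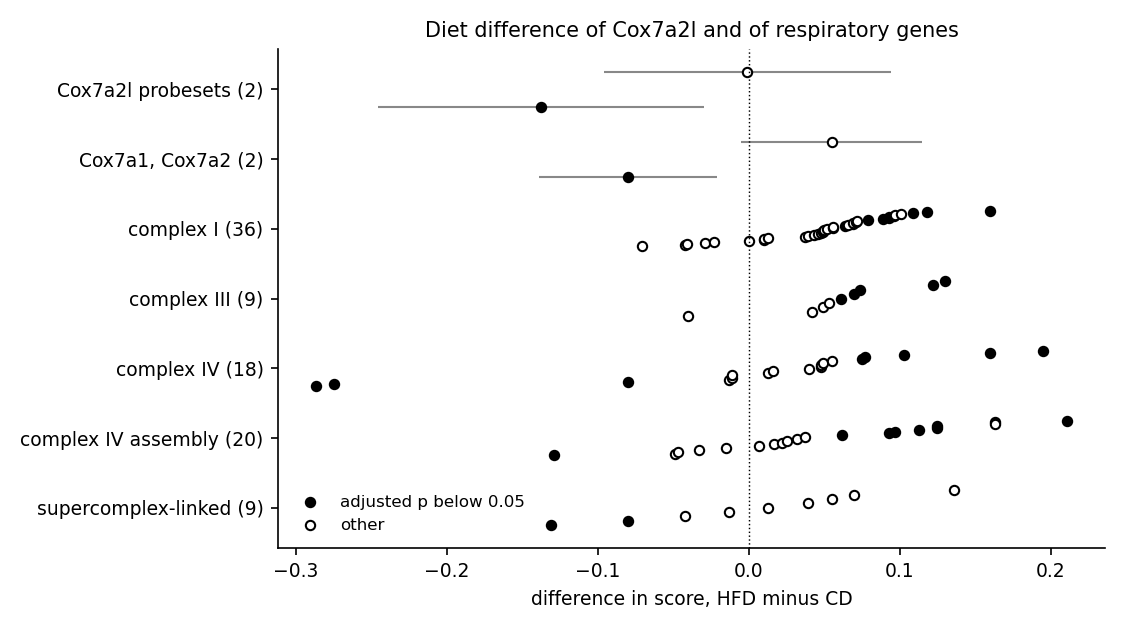
Difference in score between HFD and CD for the Cox7a2l probesets, the other COX7A genes and the members of each respiratory list (number measured in parentheses); filled points passed an adjusted p of 0.05 and lines are 95% intervals, drawn for the first 4 points. Probeset 10453254 lies at -0.138, where Cox7b2 and Cox8c, at -0.275 and -0.287, are the genes farther to the left.

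Over the strain means the median r with 10453254 was 0.06 for complex I, -0.03 for complex III, -0.06 for complex IV and 0.06 for the assembly factors, and 0 of the 83 genes reached 0.5 in size, against 1.21% of all genes. The highest was Surf1, an assembly factor of complex IV, at 0.42. On HFD alone Ndufa4 (0.60), Cox5a (0.54) and Ndufa6 (0.52) reached 0.5, or 3.61% of the 83 genes against 4.47% of all genes, and on CD alone 0 did, against 0.26%. Both counts lay near the shares of all genes, so they show no shortfall.

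Counted by an r of at least 0.5 in size over the 37 strain means, 269 of the other 22318 genes followed 10453254, which is 1.21% of them, with 137 positive and 132 negative. This number was ordinary, since 52% of all genes had more such partners and the median gene had 291. For 10399677 the count was 134 genes, 0.6%, with 51 positive and 83 negative. The values of these correlations are descriptions over strains that share parents and arrays.

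The 10 genes with the highest r with 10453254 included Cyp2j9 (0.71), Pqlc3 (0.70), Mir146 (0.68), Nsun2 (0.66), Cpsf3 (0.63), Spg7 (0.62), Lats2 (0.62), Pros1 (0.61) and Pdia3 (0.61). Cyp2j9 encodes a cytochrome P450, Nsun2 an RNA methyltransferase, Spg7 a subunit of the mitochondrial m-AAA protease, Lats2 a kinase of the Hippo pathway, Pros1 protein S of blood clotting and Pdia3 a disulfide isomerase of the endoplasmic reticulum. The top of this order changed with the diet. Of the 10 genes 0 were among the 10 highest on CD arrays alone and 0 among the 10 highest on HFD arrays alone, and 5 remained without BXD80. Their r was between 0.29 and 0.53 on CD alone and between 0.28 and 0.60 on HFD alone. Mir146 had low mean scores, 4.13 on CD and 4.19 on HFD, and a cross-diet r of -0.105. For Lats2 the cross-diet r was 0.067, and its r with 10453254 was 0.48 without BXD80. Among the genes that the limma F test for strain did not call were Mir146 (adjusted p = 0.789) and Lats2 (adjusted p = 0.574).

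At the other end the 10 lowest were Sfi1, Mnd1, Gm10334, Opn1mw, Cldnd2, Gm13271, Krtap4-13, Cd99l2, Cdh1 and LOC100043371. Strain means of Sfi1 and Opn1mw fell into 2 separate clusters, so r was taken within them. For Sfi1, which encodes a centrosome protein, it was -0.68 over the 27 strains of the lower cluster and -0.54 over the 10 of the upper. For Opn1mw, a cone opsin gene, it was -0.21 over 16 strains and -0.54 over 21. The other 8 genes had r from -0.64 to -0.60, though the 5 probesets of LOC100043371 ran from -0.73 to -0.02. Of the 10 genes 1 was again among the lowest on CD alone and 0 on HFD alone, and 4 without BXD80.

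For 10399677 the highest were Olfr909 (0.65), Gmeb1 (0.63), Ccdc84 (0.62), Fam49a (0.61), Npc2 (0.60), Fam115c (0.59), Glud1 (0.59), Hbxip (0.58), Llgl1 (0.58) and Crybg3 (0.56). Glud1 is glutamate dehydrogenase, a mitochondrial enzyme, and Npc2 carries cholesterol in lysosomes. The lowest were Csta (-0.68), Enoph1 (-0.65), Trex2, Zdhhc22, Adi1, B3galt4, Bcl2l10, Gm1332, Cacna1f and Si (-0.60). Csta and Zdhhc22 had another probeset each, with r of -0.22 and -0.13. The lowest mean scores among these genes were those of Olfr909 (4.95) and Bcl2l10 (6.16), where the median over all probesets was 7.86. No gene stood in the lists of both probesets.

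A search for probesets that kept their relation on each diet gave a shorter set, chosen after the values were seen. Of the 35554 other probesets, 96 had an r of at least 0.5 in size with 10453254 on CD alone and 1455 on HFD alone. Counted by gene, the shares were 0.26% on CD and 4.47% on HFD. On both diets 15 probesets reached it, with the same sign in all 15 cases. Of the 15 probesets 4 belonged to Fggy, an FGGY-family carbohydrate kinase gene, and the others included Cyp2j9, Zfp125, Pqlc3, Ceacam2 and Sfi1. By their numbered neighbours 5 of the 15 lay within 25 genes of Fggy and 5 within 25 genes of Hpcal1, which is the place of the second Cox7a2l probeset, and 0 lay near Cox7a2l itself. The 5 near Hpcal1 were probesets of Zfp125, Pqlc3, LOC677548 and LOC100043371 and an unnamed LTR probeset, 10394776. For 10399677 the same search gave 7 probesets, 0 of them near any of these 3 places.

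The 4 Fggy probesets divided the strains in 2. Strain means of 10505994 lay between 5.14 and 5.71 in 17 strains and between 6.33 and 7.16 in the other 20, and all 37 strains fell on the same side with all 4 probesets. DBA/2J was among the low strains, with scores of 5.20 on CD and 5.11 on HFD, and C57BL/6J among the high ones, with 6.43 and 6.36. The Cox7a2l means on 10453254 ran from 7.94 to 8.69 in the strains with low Fggy and from 8.52 to 8.91 in those with high Fggy. Within the lower and the upper cluster r was 0.15 and 0.47 for 10505994 and between -0.29 and 0.23 for the other 3 probesets. The LTR probeset, which is numbered between Odc1 and Hpcal1 on another chromosome than Fggy, placed 36 of the 37 strains on the same side as Fggy. The remaining Fggy probeset, 10505980, which has the highest mean and represents the gene in the counts, had r = 0.26.

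**Figure D5:**
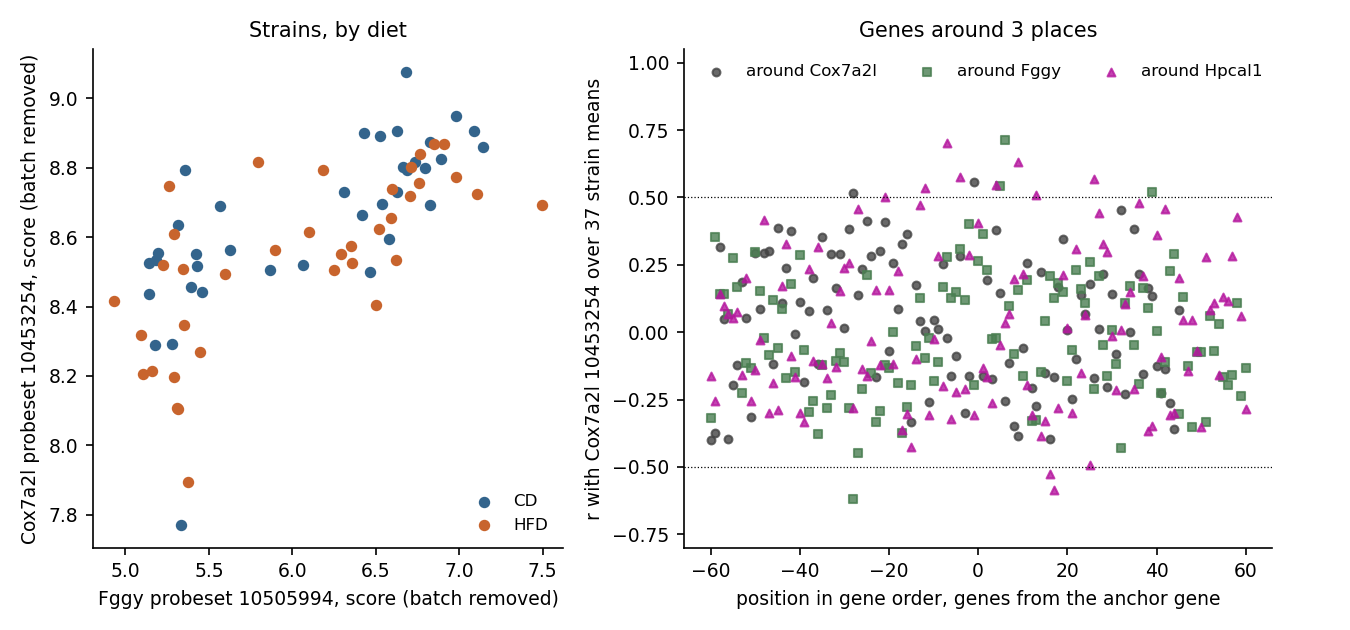
Left, score of Cox7a2l 10453254 against that of Fggy 10505994 in the 37 paired strains (blue CD, orange HFD, batch removed); right, r with Cox7a2l over the strain means for the genes up to 60 places either side of Cox7a2l, Fggy and Hpcal1, one probeset a gene, with dotted lines at 0.5 and -0.5. Points to the left of the Fggy gap spread down to the lowest Cox7a2l scores, and 9 of the 51 genes within 25 of Hpcal1 lie beyond the dotted lines.

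Few genes beside Cox7a2l had an r with 10453254 as high as those around Hpcal1. Of the 5 genes on each side Eml4, next to it, which encodes a microtubule-associated protein, had r = 0.56 with 10453254 (0.36 on CD and 0.45 on HFD, 0.46 without BXD80), and the other 9 lay between -0.30 and 0.38. Within 25 genes on each side 1 of 50, or 2.0%, reached 0.5 in size. Around Hpcal1 9 of 51 genes did, or 17.6%, against 1.21% of all mapped genes, with r from -0.59 to 0.70. Pqlc3 lies 7 genes and Cpsf3 9 genes from Hpcal1, and the disulfide isomerase gene Pdia6, 4 genes away, had r = 0.58. Around Fggy 2 of 51 did, or 3.92%, and Cyp2j9 lies 6 genes from it. Hpcal1 and Fggy were chosen after the values were seen, so their shares with 10453254 are descriptions and test nothing. With 10399677 itself 3 of the 51 genes around Hpcal1 reached 0.5 in size, or 5.88%, and 1 of the 50 around Cox7a2l, or 2.0%, against 0.6% of all mapped genes. At 0.4 in size the numbers for 10399677 were 9 of 51 (17.6%) around Hpcal1 and 7 of 50 (14%) around Cox7a2l, against 4.14%. For 10453254 they were 13 of 51 (25.5%) around Hpcal1 and 3 of 50 (6%) around Cox7a2l, against 6.62%. Among the 10 genes nearest to Cox7a2l 4 reached 0.4 with 10399677, namely Thumpd2 (0.48), Pkdcc (0.44), Mta3 (-0.43) and Thada (0.41), and 0 reached 0.5. The cut-off of 0.4 is looser than the 0.5 used elsewhere, and its counts are descriptions alone.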

How the data were processed

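Total RNA from 79 pools was run on Affymetrix arrays. The submitters' processing notes name Affymetrix Expression Console. The authors deposited 1 score per probeset and array, scaled to a mean of 8.0 and an SD of 2.0, and the log base, summarization, batch correction and genome build are not given in the sources used here. All 79 value columns were used and 0 were left unused; the chow column for BXD92 was assigned to the title BXD92a. Precision is limited by the number of arrays, which have no read depth. Array medians lay between 7.783 and 7.922, and r between arrays from 0.961 to 0.992. The batch term called 0 probesets with limma (0 at an unadjusted p below 0.05, smallest p 0.266). That is fewer small p-values than chance gives, so the batch means were alike in the scores as deposited, and the term cannot show how batches differed before then.

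Members were all probesets with the symbol Cox7a2l. Tests planned for log2 values were run on the scores, which behave as logs, with limma 3.58.1 (R 4.3.3) over all probesets and Benjamini-Hochberg adjustment. Diet was fitted with batch over all 79 arrays. Strain and parental differences were fitted with diet and batch over the 37 strains with both diets. Calls were made at an adjusted p of 0.05. Correlations used scores with the batch mean removed within diet and two-sided permutation tests with 100000 draws, exact where 8 strains remained (scipy 1.17.1 and numpy 2.4.6 under Python 3.11.15, with scikit-learn 1.9.0 for mixtures, pandas 2.3.3 and matplotlib 3.10.9). Strains counted as separate clusters where a fit of 2 normal components had a BIC lower by 10 or more and an Ashman's D above 2.

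A gene was represented by its probeset with the highest mean. Of 22319 symbols 18783 were current and 2386 were synonyms in RefSeq (GRCm38.p6), which was used for names and gene order alone, and 1150 matched neither. The names given are the 10 genes with the highest and the 10 with the lowest r, 5 genes on each side of Cox7a2l and members of the respiratory and marker lists. 1 of the genes so named counts in the totals and is not reported here. Sco2, Pet100, Pet117, Smim20, Stmp1 and Hbb-b2 were not found on the array. The members and lists were chosen with earlier results of these data known, and BXD80, Fggy, Hpcal1 and the search on both diets after their values were seen. Strain pairs the arrays, from the labels. The limma fits and the correlations were tested on simulated data with known differences.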

Additional observations from a re-analysis of the deposited data

How the results depend on the processing

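The strain effect of both Cox7a2l probesets passed under every alternative run, with F from 2.82 to 4.05 for 10453254 and from 3.93 to 5.02 for 10399677, and the parental difference passed under none of them, nor with either parent's arrays left out in turn (0.14 to 0.356 for 10453254 and -0.257 to -0.0328 for 10399677). The diet difference of 10453254 kept its sign throughout and passed under 8 alternatives, among them strain as a replicate block (-0.111, limma adjusted p = 0.0176) and without BXD80 (-0.149, 0.011). It did not pass in batch 1 alone (-0.132), in batch 2 alone (-0.142), over paired strains with no block (-0.112), without the parental strains (-0.134), with arrays centred on their median (-0.121) or on the second probeset (-0.00107). On 10399677 a value near 0 changed sign to 0.0103 in batch 1 alone, 0.00365 with the block, 0.00567 without BXD80 and 0.016 with median centring. Probesets called by diet numbered 13551, against 4491 in batch 1, 8691 in batch 2 and 5292 among probesets at or above the median score of 7.86. Of the respiratory genes 28 were higher, against 6 in batch 1 and 15 in batch 2, and 4 lower, against 2 in batch 1 and 2 among the brighter probesets. Between the parents 447 probesets were called, with 149 to 397 when 1 parental array was left out and 4 with the parental arrays alone. The cross-diet r fell short of the threshold over strains in batch 1 for 10453254 (0.549) and over strains in different batches for both (0.33 and 0.561). Of the 10 highest genes for 10453254, 0 were again highest on CD alone, 0 on HFD alone, 5 without BXD80 and 6 after quantile normalization, and of the 10 lowest 1, 0 and 4 for the first 3 of these. For 10399677 the highest kept 2 on CD alone and 0 on HFD alone, and the lowest 3 and 0. Fewer arrays, or fewer probesets, entered the fits within a batch, without parents or among brighter probesets; for the other changes the cause was not tested.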
